A study of Rattus norvegicus with 10 samples.

Results

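Glycine receptor subunit genes were examined in cultured cortical cells of the rat after inhibition of histone deacetylases (HDACs), which take acetyl groups off histones and other proteins. The family was taken as 4 genes, Glra1, Glra2, Glra3 and Glrb, among the 32883 Ensembl genes of the deposited table. The table lists identifiers without names, and 2 of the 4 could be paired with an identifier, Glra1 (ENSRNOG00000013588) and Glra3 (ENSRNOG00000049792). The genes were chosen by the increase of Glra1 and Glra3 with the inhibitors in these same libraries, and both pairs come from the study's list of genes that it calls upregulated. Their values with the drugs are therefore given as a description, and no evidence is drawn for them from the test across all genes. Glra2, Glrb and the related gene Glra4 were not analysed here.

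All cultures came from the cortex of newborn Wistar rats, and the drugs were added on day 14 in vitro and left on. RNA of 10 cultures was sequenced in 4 groups: 3 cultures with 100 nM trichostatin A (TSA) for 19 h, 3 control cultures for TSA, 2 cultures with sodium butyrate (NaB) for 24 h and 2 control cultures for NaB. For NaB the study's methods give a dose of 5 mM and the sample labels one of 5 µM. Such cultures hold glia beside neurons, and the NaB experiment had its own controls, so that drug, incubation time and experiment changed together. In bulk RNA of such cultures, more cells of a type and more RNA per cell cannot be told apart. The markers of neurons, astrocytes and oligodendrocytes on the lists used here could not be paired with identifiers, so that the cell type in the labels could not be checked against them.

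The glycine receptor is a pentameric chloride channel of the Cys-loop family, to which the GABA-A and nicotinic acetylcholine receptors also belong. Its alpha subunits bind glycine, and the beta subunit, encoded by Glrb, ties the receptor to the scaffold protein gephyrin at inhibitory synapses. The subunit encoded by Glra1 is the main adult form in spinal cord and brainstem, where its loss causes startle disease, and that of Glra3 is known from the dorsal horn of the spinal cord, the retina and parts of the forebrain. In the immature forebrain, the alpha subunit encoded by Glra2 is the usual form.

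For Glra3, a stretch of the promoter is shown, to give the sequence context of a gene that was counted at low levels. These are the last 30 bases before an annotated RefSeq transcript start of Glra3, at chr16:39857007-39857036 on the minus strand of GRCr8, a later build than the Rnor_6.0 to which the reads were mapped. The annotated gene extends beyond this start. Capitals mark a GC box, the hexamer GGGCGG, which here reads CCGCCC since it lies on the opposite strand.
Glra3: agtcctctggccCCGCCCccgcctgtcttt
The 250 bases before this start held 1 GC box, counting GGGCGG on both strands, 4 CG dinucleotides and no TATAAA on either strand. Among 27457 promoters of the same length, 32.4% held the GC box and 13.1% TATAAA, and the median number of CG dinucleotides was 6. A match in such a window is a description of the letters and not a bound site. For Glra2 and Glrb, whose expression was not analysed here, the same window held 1 and 2 GC boxes and 7 and 16 CG dinucleotides, and that of Glra2 held 1 TATAAA. The promoter of Glra1 was not analysed here.

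Glra1 was barely counted in untreated cultures and was counted in every treated one. Values are normalized counts, that is, reads of a gene divided by a size factor of its library. In the controls for TSA, Glra1 lay at 2.11, 2.06 and 2.13, which were 2 reads in each of the 3 libraries. With TSA it lay at 109, 77.8 and 171, or 116, 86 and 176 reads. The lowest TSA-treated library was thus far above the highest control. Glra1 lay at 3.11 and 3.13 in the NaB experiment's controls, which were 3 reads in each library. With NaB it lay at 62.4 and 76.2, or 66 and 79 reads. No treated library overlapped a control library in either experiment. Libraries held 26070908 to 27649249 reads, so that 3 reads, the smallest number taken as detectable, correspond to 0.109 to 0.115 CPM, reads scaled to the same library total. In the controls, Glra1 was at 0.0723 to 0.112 CPM, below this limit in those for TSA and at it in those for NaB. It was 3.12 to 6.75 CPM with TSA and 2.41 to 2.94 CPM with NaB.

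With TSA, Glra1 had a mean of 119 ± 47.5 (SD, n = 3). Its controls had one of 2.10 ± 0.0373 (SD, n = 3), where the small SD reflects equal reads and different size factors. Over the summed reads, 378 with TSA and 6 in its controls, the ratio of treated to control was 56.2, with an exact 95% interval of 25.6 to 154 for counting error only. With NaB, the mean was 69.3 ± 9.75 (SD, n = 2) and in its controls 3.12 ± 0.0186 (SD, n = 2). The summed reads were 145 and 6, a ratio of 22.2 (exact 95% interval for counting error only, 9.95 to 61.5). On the scale of log2(normalized count + 1), on which changes from few reads come out too small, the difference was 5.20 (standard error 0.31) with TSA and 4.09 (standard error 0.38) with NaB. Ordered from the largest increase, Glra1 was at rank 42 with TSA and 145 with NaB among 15717 genes tested. These ranks describe a gene chosen for its increase.

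Glra3 was also higher in every treated library than in any of its controls, and was counted in few reads throughout. It lay at 1.05, 2.06 and 4.27 in the controls for TSA, which were 1, 2 and 4 reads. With TSA it lay at 28.1, 8.14 and 14.6, or 30, 9 and 15 reads. Between the highest control and the lowest TSA-treated library, the gap was thus 5 reads. Of the controls for NaB, 1 library had no read and the other had 4 reads (4.18). A library without a read allows up to 3 reads, a share of 0.112 CPM. With NaB, Glra3 lay at 17.0 and 25.1, or 18 and 26 reads. The groups did not overlap in either experiment.

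With TSA, Glra3 had a mean of 16.9 ± 10.2 (SD, n = 3), against 2.46 ± 1.64 (SD, n = 3) in the controls. With NaB, the mean was 21.0 ± 5.70 (SD, n = 2), against 2.09 ± 2.95 (SD, n = 2). The ratio of summed reads was 6.88 with TSA (54 against 7 reads, exact 95% interval 3.12 to 17.9) and 10.1 with NaB (44 against 4 reads, 3.68 to 38.7), both for counting error only. The log2 difference was 2.32 (standard error 0.66) with TSA and 3.25 (standard error 0.81) with NaB. The value with NaB rested on the control libraries: without control 4, which had no read, it was 2.07, and without control 5 it was 4.44.

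**Figure D1:**
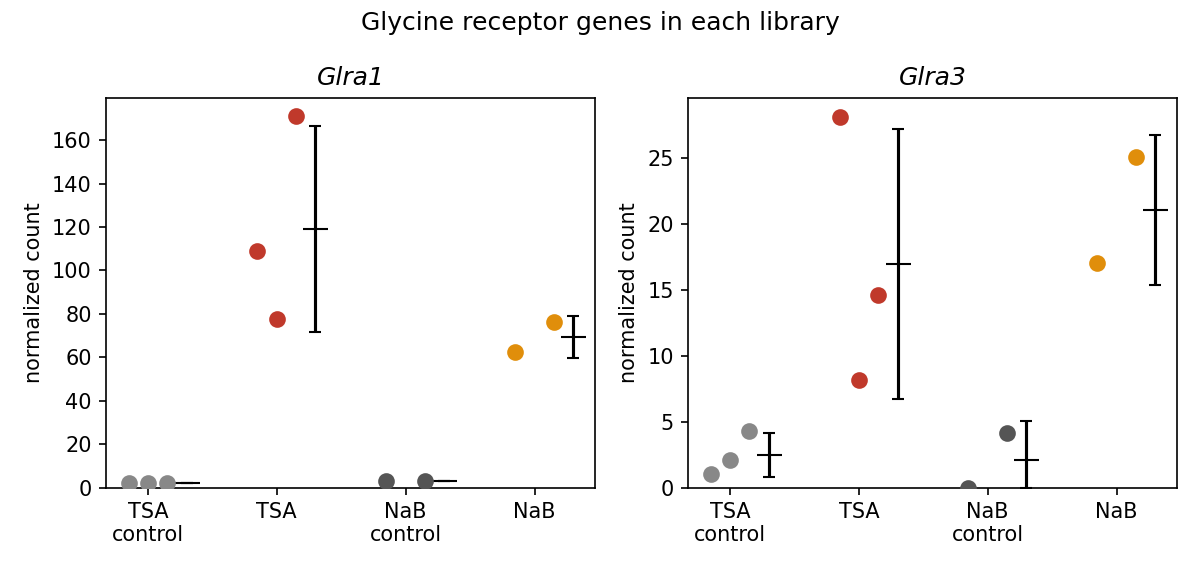
Normalized counts (linear axes from 0) of Glra1, left, and Glra3, right, in the 10 libraries by group. Points are libraries, the black bar beside them is the mean with its SD (n = 3 for TSA and its controls, n = 2 for NaB and its controls; the lower end is drawn no further than 0). The TSA-treated libraries of Glra1 lie between 77.8 and 171 and its controls at 3.13 or below, while for Glra3 the lowest treated library is at 8.14 and the highest control at 4.27.

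By the thresholds used across all genes, a Benjamini-Hochberg adjusted p below 0.05 in limma and a log2 difference of at least 0.5, 2 of 2 measured members were among the genes called higher with each drug. Of all 15717 genes tested, 22.5% were called higher with TSA and 21.2% with NaB, and nothing is read from the members' count, since the same contrasts chose them. The treated libraries all lay above the controls in 33.1% of the genes tested with TSA and in 40.2% with NaB. Both members passed the filter on low counts only through their treated libraries, and a gene that passes in this way had to differ. Over the alternative settings and left-out libraries, the log2 difference of Glra1 was 4.06 to 5.83 with TSA and 3.19 to 4.48 with NaB. That of Glra3 was 1.48 to 2.79 with TSA and 1.93 to 4.44 with NaB, and the 2 of 2 became 1 of 2 without TSA-treated library 1 for TSA (Glra3 at 1.89) and without control 4 for NaB (Glra3 at 2.07).

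In order of its level, Glra1 was highest with TSA, followed by NaB, the controls for NaB and the controls for TSA. The lowest TSA-treated library (77.8) and the highest NaB-treated library (76.2) were close, and the means of the treated groups, 119 and 69.3, differed by about the SD of the TSA group. For Glra3 the order of the treated groups was the opposite, 21.0 with NaB and 16.9 with TSA, but the libraries of the treated groups overlapped. The control groups overlapped for Glra3 and, by 1 read per library, did not for Glra1. Whether the effects of the drugs differed was not tested for the members, since both contrasts had chosen them.

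The coefficient of variation of Glra1 was 39.8% over the 3 TSA-treated cultures, where counting alone gives about 8.91% at these reads. With NaB, it was 14.1%, against 11.7% from counting. Separate cultures commonly differ by more than counting error, as Gabrg1 did with TSA (13.4% against 1.81%). For Glra3, the coefficient of variation was 60.2% with TSA, against 23.6% from counting, and 27.1% with NaB, against 21.3%. The members did not follow each other among the TSA-treated cultures: culture 3 had the highest Glra1 and culture 1 the highest Glra3. Culture 2 had the lowest value of both.

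The control cultures of the experiments were compared with each other. This contrast did not choose the members, but its libraries were the controls in the contrasts that did, so that it is not independent of the choice. For Glra1, the controls for NaB were 0.41 higher than those for TSA on the log2 scale (95% interval -0.36 to 1.18, limma, adjusted p = 0.558), which was 3 reads against 2 in each library. For Glra3, the same difference was -0.50 (95% interval -2.13 to 1.13, limma, adjusted p = 0.753), and without the control for NaB that had no read the sign turned, to 0.69. Both genes passed the filter on low counts only through their treated libraries. At 0 to 4 reads per control library, this contrast could hardly call either gene, and it does not show that the control groups were alike.

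Genes of glycine and chloride handling were next in role to the receptor. Of the 140 genes on lists set by function and cell type, 20 could be paired with an identifier, and 19 of these passed the filter on low counts. As for the members, their names come from the study's upregulated genes, so that a count by direction is fixed by the choice: 17 of 19 were called higher by limma with TSA and 16 of 19 with NaB (19 by edgeR), and 0 were called lower. No list can be judged as a whole from these. None of the genes for the receptor's anchoring, among them Gphn (gephyrin), could be paired, nor could Slc6a9, Slc32a1, Slc12a2 and Slc12a5, and the lists of serine and glycine metabolism and of NMDA receptor subunits had no paired gene.

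Slc6a5, which encodes the glycine transporter that refills glycinergic nerve terminals and marks glycinergic neurons, was higher in all treated libraries than in their controls. It lay at 4.22, 4.12 and 8.53 in the controls for TSA and at 41.3, 38.0 and 25.3 with TSA. The controls for NaB had 7.25 and 11.5, and the NaB-treated libraries 36.9 and 54.0. The log2 difference was 2.47 (standard error 0.35) with TSA and 2.17 (standard error 0.43) with NaB. Of the cation-chloride cotransporters, which set the chloride gradient that glycine and GABA receptors use, Slc12a7, a potassium-chloride cotransporter, had a mean of 439 ± 69.2 (SD, n = 3) with TSA, against 54.4 ± 16.4 (SD, n = 3). With NaB it was 402 ± 103 (SD, n = 2), against 91.6 ± 50.5 (SD, n = 2). Its log2 differences were 3.02 with TSA and 2.21 with NaB, the latter between 1.63 without control 4 and 2.80 without control 5. Slc12a3, the thiazide-sensitive sodium-chloride cotransporter of the kidney, differed less, by 1.29 with TSA and 1.14 with NaB.

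Within the Cys-loop family, 3 of 19 GABA-A receptor subunit genes were paired. Gabre and Gabrq encode the epsilon and theta subunits, which are found in few brain regions, the hypothalamus and locus coeruleus among them. Gabre was at 759, 603 and 443 with TSA and at 13.7, 15.5 and 9.60 in its controls. With NaB it was at 366 and 405, against 14.5 and 4.18. Its log2 difference was 5.43 (standard error 0.37) with TSA and 5.43 (standard error 0.45) with NaB. For Gabrq the differences were 4.55 (standard error 0.43) and 5.33 (standard error 0.52). The NaB values of both depended on which control was kept. For Gabre they were 6.22 without control 4 and 4.64 without control 5, and for Gabrq 6.04 and 4.63. Gabrq had a mean of 382 with TSA, against 16.7 in the controls, and of 209 with NaB, against 4.67. Its larger log2 difference with NaB thus went with lower controls and not with a higher treated level. On the log2 scale, its controls for NaB minus those for TSA gave -1.69 (limma, adjusted p = 0.0957). Gabrg1, a gamma subunit gene that was already at 1241 ± 124 (SD, n = 3) in the controls for TSA, was at 2859 ± 383 (SD, n = 3) with TSA, a log2 difference of 1.20, and of 1.01 with NaB. With NaB, the log2 differences of Gabre and Gabrq were larger than that of Glra1 (4.09), also when any 1 library was left out. With TSA, the order of Glra1 and Gabre depended on the tool. These 3 genes were, as the members, known from their increase.

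Of 18 nicotinic and serotonin-gated receptor subunit genes, 4 were paired. Chrna5, Chrna3 and Chrnb4 encode subunits of the ganglionic type of nicotinic receptor and are neighbours in the genome, so that reads could be split between overlapping transcripts. Chrna5 was at 706 ± 101 (SD, n = 3) with TSA, against 73.3 ± 21.1 (SD, n = 3), and its log2 differences were 3.28 with TSA and 3.34 with NaB. Those of Chrnb4 were 3.34 with TSA and 3.40 with NaB, and those of Chrna3 were 2.00 with TSA and 2.83 with NaB. Chrna1, the alpha subunit of muscle, was counted at 12, 22 and 19 reads with TSA and 5, 6 and 1 in its controls. Its log2 difference was 1.91 (standard error 0.48) with TSA and 1.52 (standard error 0.59) with NaB. The latter was called by edgeR, but not by DESeq2 or by the main limma fit to all 4 groups. Fitted to the libraries of each comparison alone, limma called it too, as all 19 tested list genes were then called higher with NaB. With the replicate block, limma called 18 of the 19. Without control 2 or control 3 for TSA, which are outside the NaB contrast, the fit to 4 groups called all 19.

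**Figure D2:**
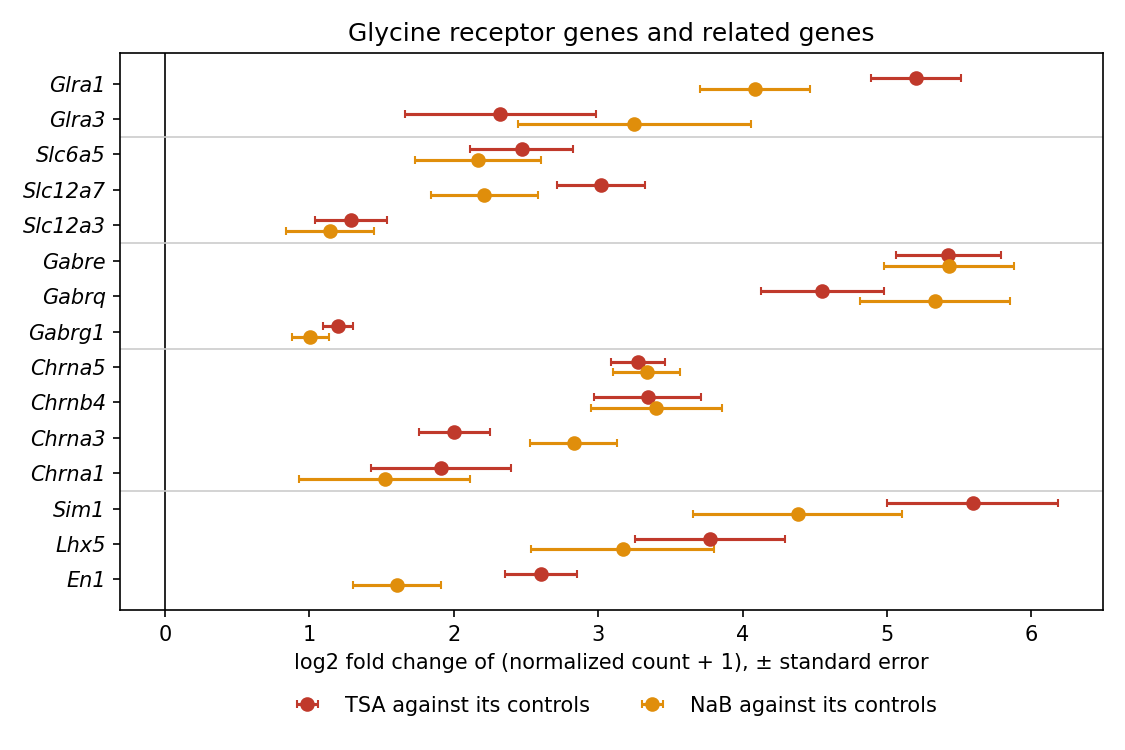
Log2 fold changes of (normalized count + 1) for 15 genes, with points for TSA (red) and NaB (orange) against their own controls and bars for the standard error of the limma fit. From the top, groups divided by lines are the glycine receptor genes, glycine and chloride transporters, GABA-A receptor subunits, nicotinic receptor subunits and spinal cord or hindbrain markers. Every point lies above 0, the genes being named from a list of upregulated genes, and Glra1 (5.20 with TSA) lies near Gabre (5.43).

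Of 10 genes that mark interneurons of the spinal cord and hindbrain, 6 were paired: Pax2, En1, Lhx1, Lhx5, Tlx3 and Sim1, all transcription factors of embryonic neuron types. They too were named from the upregulated genes, 5 of them were tested, and the other 4 of the list have no value here. Their summed normalized counts were 9.49, 10.3 and 8.53 in the controls for TSA and 195, 141 and 251 with TSA. The NaB experiment had sums of 23.8 and 15.7 without drug and of 154 and 168 with it. The most abundant of the 6 with TSA was Sim1, at 66.6, 53.4 and 94.2, and in the controls it was En1. Of Lhx1 and Tlx3, all 5 untreated libraries were without a read. Against a floor of 3 reads over the group, the ratio to the controls was 14.3 for Lhx1 and 17.0 for Tlx3 with TSA. For NaB these ratios were 7.96 and 11.3. They take the treated reads as exact. With the counting error of the treated reads included, the exact 95% lower limits of the ratios were 11.2 for Lhx1 and 13.3 for Tlx3 with TSA, and 6.02 and 8.76 with NaB. Pax2, with 1 read in all controls together, was below the filter on low counts and had 7 to 10 reads with TSA and 10 and 11 with NaB. En1, the paired marker with the most reads in the controls (6.65 ± 0.490 for TSA, SD, n = 3, and 15.1 ± 0.645 for NaB, SD, n = 2), had the smallest log2 differences of the 5 tested, 2.61 with TSA and 1.61 with NaB. Lhx5 had log2 differences of 3.77 with TSA and 3.17 with NaB, the latter between 2.37 and 3.97 when a control library was left out, and Sim1 of 5.59 and 4.38 (3.37 to 5.40). A higher sum in the treated libraries was fixed by the choice of these markers, and nothing about Glra1 is read from it. The part of these markers in the levels of Glra1 was not tested.

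Markers of other cell types on the lists were few. Flt1, a receptor of endothelial cells, was at 98.5, 85.0 and 109 with TSA and at 3.16, 1.03 and 3.20 in its controls, with log2 differences of 4.90 with TSA and 4.04 with NaB. Col1a1, the collagen gene of meningeal fibroblasts, differed between control cultures: it was at 909, 47.4 and 1379 in those for TSA and at 149 and 137 in those for NaB. In treated cultures it was at 798, 696 and 879 with TSA and 876 and 961 with NaB. Tmem119, a microglia marker, had 2, 1 and 5 reads in the controls for TSA, 6, 5 and 2 with TSA, 1 and 2 in the NaB experiment's controls and 16 and 12 in its treated libraries. Pvalb, of the GABAergic interneurons, was at 3.16, 7.21 and 1.07 in the controls for TSA and at 11.3, 11.8 and 14.6 with TSA. The NaB experiment had 20.7 and 12.5 without drug and 33.1 and 45.3 with it. On the log2 scale, its controls for NaB were 2.05 above those for TSA (limma, adjusted p = 0.0733), more than either drug difference. The drug differences were 1.70 (standard error 0.47) with TSA and 1.21 (standard error 0.57) with NaB. The latter was called by edgeR, and by limma on the libraries of each comparison alone. It was not called by DESeq2 or by the main limma fit to all 4 groups, but was without control 2 or control 3 for TSA. Pvalb was the only 1 of 8 interneuron markers paired, and its name came from the upregulated genes. For other interneuron genes (Gad1, Gad2, Gabbr2, Slc6a11, Htr3a and Vip), the study reports lower expression after the inhibitors. The part of these cell types in the members' values was not tested. Between the control groups, limma called 0 of the 19 tested list genes, edgeR called 0 and DESeq2 called 1, where limma called 1.55% of all genes. By limma, 4 of the 19 had an unadjusted p below 0.05, near the 19.4% of all genes that did.

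**Figure D3:**
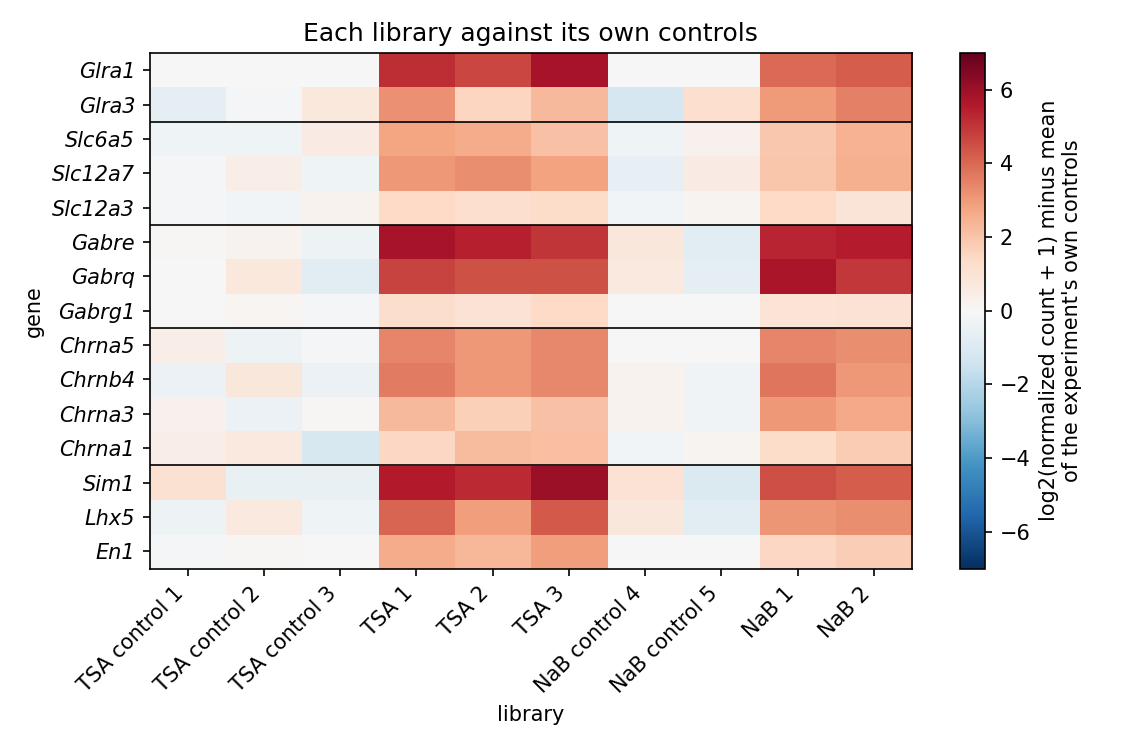
Heatmap of 15 genes (rows) in the 10 libraries (columns). Color is log2(normalized count + 1) minus the mean of the controls of the same experiment, with blue below and red above that mean. The 5 treated libraries are red in all 15 rows, whose genes were named from a list of upregulated genes. In the row of Glra1 the darkest is TSA 3 (171 normalized counts). Of the tested list genes, Pvalb, Flt1, Lhx1, Tlx3, Tmem119 and Col1a1 are not shown. For Tmem119 and Col1a1, the TSA-treated libraries did not all lie above their controls.

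Many genes followed the pattern of Glra1 across the libraries. Over 10 libraries, 2158 of 15716 other genes tested, or 13.7%, had a Pearson's r of at least 0.9 with Glra1 on the log2 scale, and 906 of at least 0.95. Among the 1827 other tested genes with a name, which are all upregulated, the 3 most alike were Bcap29, Prr23a and Shq1, with r = 0.995, 0.995 and 0.994. Bcap29 encodes a chaperone-like protein of the endoplasmic reticulum and was at 1583 with TSA and 686 in its controls, while Prr23a had no read in the controls and a mean of 36.2 with TSA. For Glra3, 364 genes, or 2.32%, reached 0.9, and the named genes most alike were Rab38 (r = 0.953), Skap2 (r = 0.952) and Thsd1 (r = 0.947). Glra1 and Glra3 correlated with r = 0.855. The 10 points share their split into treated and control cultures and their normalization, and the values of r are a description.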

How the data were processed

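Paired-end reads were mapped by the authors to the rat genome Rnor_6.0 with STAR 2.7.9a, counted per gene with featureCounts 2.0.1 and normalized with the median-of-ratios method of DESeq2 1.29 (versions per the submitters' processing notes). The deposited signal is thus a read count divided by 1 size factor per library. Division by the smallest value above 0 of each library gave whole reads (within 0.01) for 100% of the values. How strand and reads with several matches were treated is not given in the sources used here, so that reads shared by paralogs or overlapping genes are uncertain. Of 32883 genes, 24293 had at least 1 read and 15717 passed filterByExpr (minimum count 10).

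The test was limma 3.58.1 (R 4.3.3) on log2(normalized count + 1), its prior variance following the mean, fitted to all 4 groups (10 libraries), two-sided, with Benjamini-Hochberg adjustment over all tested genes. On the whole reads, edgeR 4.0.16 called 6657 genes with TSA and 6546 with NaB, and DESeq2 1.42.0 called 6376 and 6312. The fits were also run on simulated counts, with far fewer changed genes than called here and the same spread beyond counting for every gene. That run does not check the fits for genes that vary between cultures as the members did. Names came from the readable rows of the study's supplementary list, where 1909 identifiers stand beside a symbol, upregulated genes throughout. Its fold changes and p-values were not used. Promoter sequences are from RefSeq (GRCr8), and of the 22 paired genes, members included, 18 had an entry. The members and lists were chosen with earlier results of these data known.

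By rule, the text names the members and Glra4, 7 genes of glycine and chloride handling and anchoring, in each list up to 4 genes called alike with both drugs with all treated libraries beyond their controls (ranked by the smaller log2 difference) and up to 2 called with neither, and the 3 named genes most alike to each member. Chrna1, Pvalb, Tmem119, Pax2 and any further marker fall outside it and were chosen after their values were seen. Levels were not compared between genes per length, for which no transcript length was at hand.

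The study states that each control and treated pair shared a plate. Deviations from the group means of the paired libraries correlated with r = 0.280, 0.390 and 0.310 for TSA, where replicate numbers give the pairs, and 0.338 for NaB, where consecutive library names do. Alternatives were the tools above, pseudocounts of 0.5 and 5, the low-count filter dropped or replaced by a mean of 50 or more, library totals, TMM factors, the libraries of each comparison alone, the replicate block, and each library left out.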

Additional observations from a re-analysis of the deposited data

How the results depend on the processing

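The numbers of genes called with TSA (6644) and NaB (6521) stayed within 1.5 times of these under every alternative run. With the replicate block they were 6958 and 6950, and list genes called higher were 17 and 18. The block could not be fitted for the contrast between control groups, whose plates differ. In that contrast, 243 genes were called by limma, 581 by DESeq2, 104 without the filter on low counts, 6 with the 5 control libraries alone, and 23 to 461 when single libraries were left out (23 without control 5 for NaB, 71 without control 1 for TSA, 461 without control 2 for TSA, 144 without control 3 for TSA, 106 and 149 without TSA-treated libraries 1 and 3, and 123 and 124 without NaB-treated libraries 1 and 2). List genes called in it numbered 0, or 1 by DESeq2 and 0 to 2 when single libraries were left out (2 without control 2 for TSA). With a mean of at least 50 counts, fewer list genes were tested, and 7 were called higher with each drug in place of 17 and 16. The log2 difference of Glra1 with TSA was 5.73 by edgeR, 5.83 by DESeq2 and 4.06 with a pseudocount of 5, and with NaB 4.48 by DESeq2 and 3.19 with a pseudocount of 5. That of Glra3 with NaB was 1.93 with a pseudocount of 5 and 2.07 to 4.44 when single libraries were left out, and its difference between the control groups turned to 0.69 without control 4 for NaB and was -1.68 without control 5. The cause of these shifts was not tested, other than that a larger pseudocount shrinks differences of low counts. Glra3 was below a mean of 50 and had no value there. Transcript against coding length was not run. Scaling by library totals moved the median of all genes to 0.20 with TSA and 0.13 with NaB, and the share of higher calls changed with it, to 4675 of 6841 genes with TSA and 3923 of 6499 with NaB, from 3540 of 6644 and 3337 of 6521. Depth limits what is seen of Glra1 and Glra3 in controls to 0 to 4 reads per library.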
